A study of Mus musculus with 4 samples.

Results

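The suppressors of cytokine signalling (SOCS) family of the mouse has 8 genes, Cish and Socs1 to Socs7. All 8 were found by their symbol among the 24421 rows of a table of gene levels from DSS-treated mice with and without Usp25. Usp25 encodes a deubiquitinating enzyme that acts in cytokine and innate immune signalling. The study compared 2 mice of genotype Usp25+/+ (WT-139 and WT-140) with 2 mice of genotype Usp25-/- (KO-826 and KO-850). Every mouse was C57BL/6, was 8 weeks old and had 5 days of 2.5% dextran sulfate sodium (DSS), a polymer that injures the gut lining, and then 2 days of plain water. There was thus no untreated group. RNA labelled as coming from the colon was selected for its polyA tail and sequenced. The labels do not name the deleted exons or say whether the Usp25+/+ mice were littermates. Each column holds 1 mouse, so an n of 2 counts animals.

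SOCS proteins are feedback inhibitors. A cytokine binds its receptor, JAK kinases attached to the receptor phosphorylate STAT transcription factors, and these switch on SOCS genes, whose proteins then bind the receptor or the kinase and end the signal. Each carries an SH2 domain that reads phosphotyrosine and a carboxy-terminal SOCS box that brings in elongins and cullin 5 to ubiquitinate the bound target. In the gut, SOCS3 is best known for limiting STAT3 signalling downstream of IL-6, IL-11 and IL-22, and SOCS1 for limiting interferon gamma signalling.

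Levels are FPKM, the number of sequenced fragments scaled to transcript length and library size. This scaling does not correct for a differing make-up of the libraries, so rescaled values were tested as well. Usp25 itself followed the labels, with 38.5 and 16.6 FPKM in WT-139 and WT-140 against 2.65 and 1.71 FPKM in KO-826 and KO-850. The libraries did not carry the profile of a whole colon wall. Of 12 colonocyte genes 6 stayed below 1 FPKM in every mouse, Aqp8 and Cdx1 were listed at 0 throughout, and the goblet cell mucin Muc2 did not exceed 0.193 FPKM. The colonocyte genes Car1 and Slc26a3 did not exceed 0.0509 and 0.124 FPKM. Of 7 goblet cell genes 4 stayed below 1 FPKM in every mouse, among them Zg16, listed at 0 throughout. Some other genes counted for these cell types were present, with Ceacam1 at 18.4 to 44.2 FPKM, Krt20 at 3.11 to 52.4 FPKM and the goblet cell gene Agr2 at 18.6 to 24.4 FPKM. Car4, at 193 to 399 FPKM, was counted both as a colonocyte and as an alveolar macrophage marker. Surfactant genes of the lung were abundant, with Sftpb at 865 to 3284 FPKM and Sftpc at 339 to 2596 FPKM. The airway gene Scgb1a1 had 219 to 741 FPKM and the lung factor Nkx2-1 had 6.70 to 13.7 FPKM. Alveolar macrophage markers were present too, with Ear2 at 97.0 to 369 FPKM and Marco at 39.3 to 170 FPKM. The libraries thus carried lung genes although the labels name the colon, and the origin of the RNA was not tested. Mouse WT-139 stood apart from the others. It listed 3862 genes at 0, against 7175 to 8813 in the other mice. Its log2(FPKM + 1) values correlated with theirs at 0.876 to 0.890, where each of the others reached 0.9565 or more with another mouse. The cause was not tested. The 7 neutrophil marker genes summed to 45510.0 FPKM in WT-139, against 782 FPKM in WT-140 and 2052 and 1266 FPKM in the Usp25-/- mice. None of the 7 was at 0 in any mouse. In RNA taken from many cells together, fewer cells of a type and less RNA per cell cannot be told apart.

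Start regions of 3 members are printed here because Socs3, Cish and Socs1 are the family's classical cytokine-induced genes and the ones whose motifs a reader would look for beside their levels. The RefSeq promoter table (build GRCm38.p6) matched 4 of the 8 members, namely Cish, Socs1, Socs3 and Socs4. Socs2, Socs5, Socs6 and Socs7 were not in it. Capitals mark the letters TTCNNNGAA, the core that STAT dimers bind, which reads alike on both strands, and the letters GAAANNGAAA, the core of interferon regulatory factor elements, searched on both strands.
Cish, chr9:107296599-107296678, plus strand: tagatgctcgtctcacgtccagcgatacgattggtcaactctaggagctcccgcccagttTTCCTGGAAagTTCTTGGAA
Socs1, chr16:10785537-10785696, minus strand: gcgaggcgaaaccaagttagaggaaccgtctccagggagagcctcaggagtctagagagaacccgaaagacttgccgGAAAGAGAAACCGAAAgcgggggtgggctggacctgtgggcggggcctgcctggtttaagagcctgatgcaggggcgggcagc
Socs3, chr11:117969367-117969546, minus strand: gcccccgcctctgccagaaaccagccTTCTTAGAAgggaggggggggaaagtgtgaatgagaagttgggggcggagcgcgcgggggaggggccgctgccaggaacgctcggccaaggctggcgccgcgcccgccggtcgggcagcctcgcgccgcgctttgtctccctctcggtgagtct

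The 300-base window of Cish held 2 STAT cores, TTCCTGGAA and TTCTTGGAA, which begin at the annotated start site and 11 bases after it. The Socs3 window held 1, TTCTTAGAA, which begins 154 bases before the start site. The Socs1 window held no STAT core and 2 interferon factor cores, GAAAGAGAAA and GAAACCGAAA, which share 4 bases and begin 83 and 77 bases before the start site. The Socs4 window held neither. Of all 32851 windows in the table, 8.30% held at least 1 TTCNNNGAA and 0.457% at least 2, and 3.44% held at least 1 GAAANNGAAA. A match describes the letters of the window and is not a measured binding site.

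In the Gencode annotation of the mm9 build, which is the build the submitters' processing notes name, all 8 genes are protein-coding. Socs1 is the smallest, with 2 exons and 1 transcript between 10783901 and 10785629 on chromosome 16, which is also the chromosome of Usp25. Socs3 lies on chromosome 11 from 117827393 to 117831361 on the minus strand and has 2 exons in its longest transcript. Cish lies on chromosome 9 from 107198357 to 107205115 on the plus strand. It overlaps Gm17040 and Gm17041 on the other strand, sharing 261 and 479 exonic bases with them, and since no strand setting is given, reads from these cannot be separated from those of Cish. No other member overlapped an annotated gene.

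Levels differed widely between the 8 members. Socs3 was the most abundant, at 81.3 to 189 FPKM over the 4 mice, and its lowest value was above the highest value of any other member. Cish at 24.5 to 39.1 FPKM and Socs2 at 14.8 to 30.0 FPKM came next and overlapped each other. Socs4, Socs5, Socs1 and Socs6 followed with mean levels of 5.48, 5.23, 4.98 and 4.57 FPKM. Their ranges overlapped, so no order among these 4 holds beyond the spread between mice. Socs7, at 1.73 to 2.58 FPKM, was the lowest member within each mouse. Its range lay below those of Socs5, Socs1 and Socs6 but overlapped that of Socs4, which had 2.34 FPKM in KO-850. Every member was above 1 FPKM in each mouse, and none was listed at 0, so all 8 were tested.

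**Figure D1:**
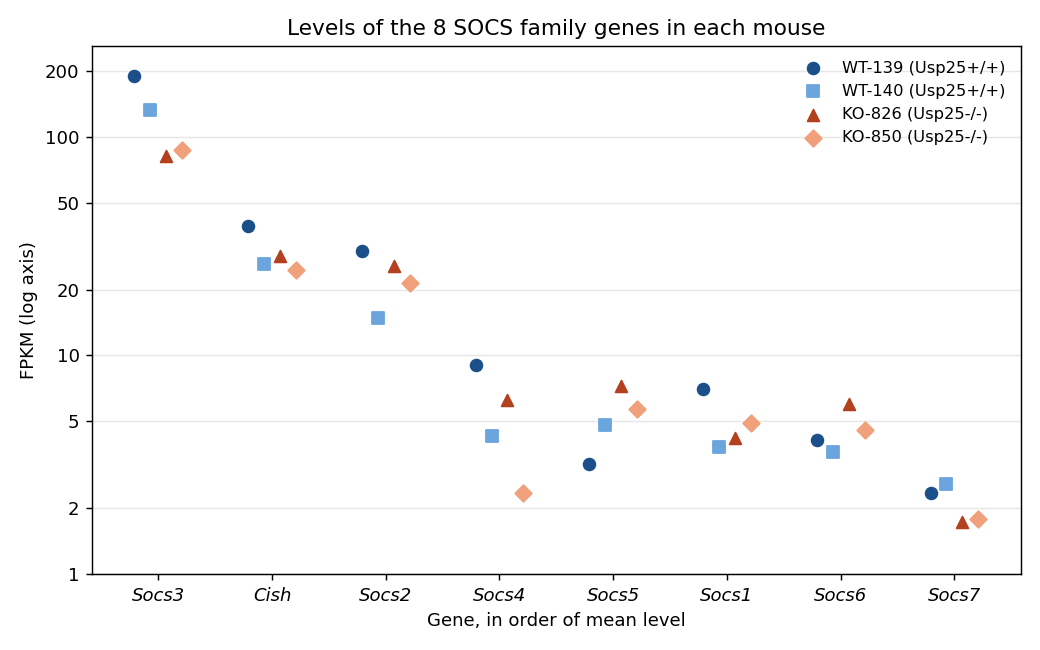
FPKM of each family gene (log vertical axis) in the 4 mice, 1 point for each mouse, with genes ordered by mean level. Socs3 stands above all others, and WT-139 is the highest point for Socs3, Cish, Socs2, Socs4 and Socs1.

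The summed level of the family was 284 FPKM in WT-139 and 192 FPKM in WT-140, against 161 and 152 FPKM in KO-826 and KO-850. Socs3 alone made up 66.6% and 68.7% of that sum in the Usp25+/+ mice and 50.6% and 57.1% in the Usp25-/- mice. Its share of the family was thus lower in both Usp25-/- mice. Cish contributed 13.8% and 13.6% in Usp25+/+ mice against 17.7% and 16.1% in Usp25-/- mice. Socs5, whose FPKM was higher in both Usp25-/- mice, contributed 1.12% and 2.50% against 4.51% and 3.73%. Socs1, Socs4, Socs6 and Socs7 stayed at 3.89% or less of the sum in every mouse. Shares within a library do not depend on how the libraries are scaled to each other, but they are bound to add up to the whole, so a lower share of Socs3 leaves a higher share to the rest.

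**Figure D2:**
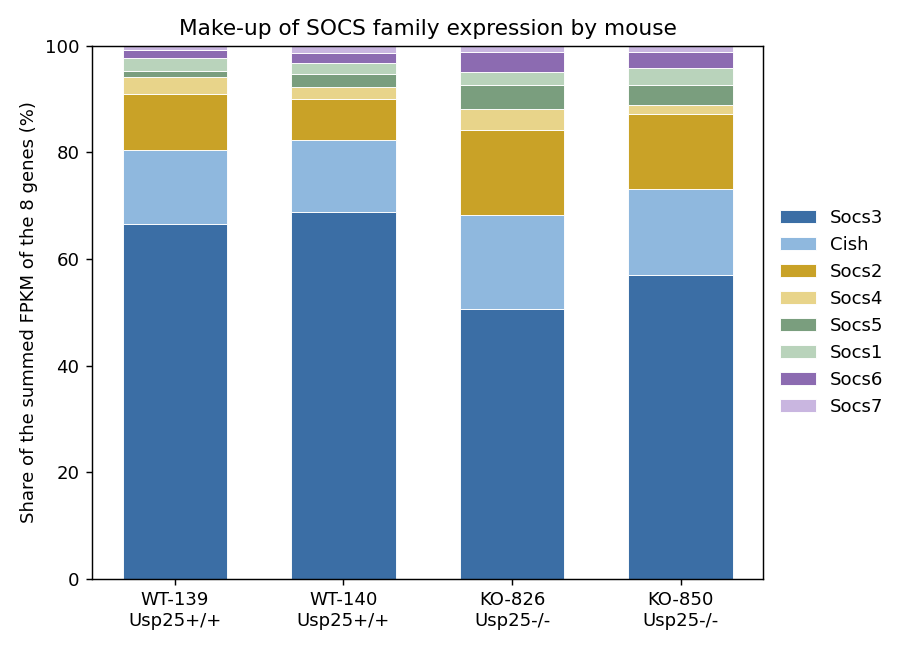
Share of the summed FPKM of the 8 genes taken by each gene, as stacked percentages for each mouse. The Socs3 segment covers 66.6% and 68.7% in Usp25+/+ mice and 50.6% and 57.1% in Usp25-/- mice.

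No SOCS gene passed the genotype test. Values were compared as log2(FPKM + 1) with limma's moderated test over 12103 genes that reached 1 FPKM in at least 2 mice. At a Benjamini-Hochberg adjusted p of 0.05, limma called 0 of the 8 members and 0 of all tested genes (0%), and 1 member, Socs3, had an unadjusted p under 0.05, as did 400 of all tested genes (3.30%). Usp25 itself was not called either (log2 difference -3.07, limma adjusted p = 0.968), so a gene left uncalled here may still differ. The genotype groups did not overlap for 4 of 8 members, against 33.7% of all tested genes. These were Socs3 and Socs7, lower in both Usp25-/- mice (background 14.7%), and Socs5 and Socs6, higher in both (background 19.0%). The median log2 difference of the members was -0.21, beside 0.03 for all tested genes, with 5 members lower and 3 higher by their mean log2 values. These p-values reflect only how far the 4 mice differ among themselves. For 1 gene, 2 against 2 mice allow an exact permutation p of 0.333 at the smallest.

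**Figure D3:**
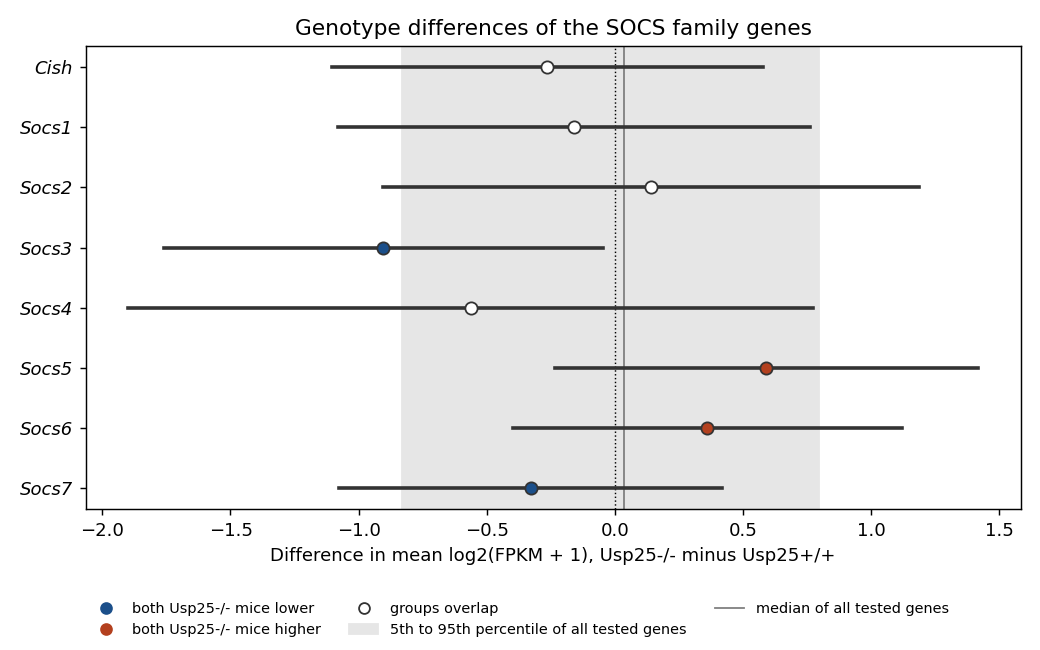
Difference in mean log2(FPKM + 1) between Usp25-/- and Usp25+/+ mice for each family gene, with limma's 95% interval as a line. The grey band spans the 5th to 95th percentile of all tested genes, -0.83 to 0.79, and Socs3 at -0.90 is the member outside it.

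Socs3 and Socs1 are the members with a kinase inhibitory region, a short stretch that blocks the catalytic site of JAK kinases directly. Socs3 measured 189 and 132 FPKM in WT-139 and WT-140, and 81.3 and 86.7 FPKM in KO-826 and KO-850. The Usp25-/- values lay close together and below both Usp25+/+ values. Its mean was 160 ± 40.4 FPKM in Usp25+/+ and 84.0 ± 3.76 FPKM in Usp25-/- mice (SD, n = 2), a ratio of 1.91. The log2 difference was -0.90 ± 0.34 (SE), with a 95% interval from -1.76 to -0.05 and a limma adjusted p of 0.968. That absolute difference was larger than that of 92.2% of all tested genes. The log2 difference was -0.64 without WT-139 and -1.16 without WT-140, and -0.86 and -0.95 without KO-826 and without KO-850. Socs3 is also a gene of neutrophils and macrophages. The summed neutrophil genes were highest in WT-139, as Socs3 was, and lowest in WT-140, the mouse with the next highest Socs3. The 8 macrophage markers, none at 0 in any mouse, summed to 4552 and 2306 FPKM in Usp25+/+ mice and to 2510 and 1634 FPKM in Usp25-/- mice. Cd14 alone gave 3392 FPKM of the sum in WT-139 and 1493 FPKM in KO-826. The markers did not rank the mice alike: 4 of the 8 were highest in WT-139, but Cd68 was highest in WT-140, and C1qa and C1qb were lowest in WT-139. The part of either cell type in the Socs3 values was not tested.

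Socs1, whose product inhibits JAK kinases under interferon receptors, ordered the same mice in another way than Socs3. Its level was 7.01 and 3.80 FPKM in Usp25+/+ mice and 4.18 and 4.93 FPKM in Usp25-/- mice. The groups overlapped, since WT-139 held the highest and WT-140 the lowest value of the 4. Its log2 difference was -0.16 ± 0.36 (SE), with a 95% interval from -1.08 to 0.76 and a limma adjusted p of 0.978. Without WT-139 it was 0.21, so its sign rests on that mouse. The ratio of Socs3 to Socs1 was 27.0 and 34.7 in Usp25+/+ mice and 19.5 and 17.6 in Usp25-/- mice. This ratio was formed after the values had been seen.

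Cish and Socs2 are the members closest to STAT5 signalling, which growth hormone, prolactin, erythropoietin, IL-2 and GM-CSF use. Cish encodes CIS, the founding member of the family. Its level was 39.1 and 26.1 FPKM in Usp25+/+ mice and 28.5 and 24.5 FPKM in Usp25-/- mice. Only WT-139 stood apart, and WT-140 lay between the Usp25-/- mice. The log2 difference of Cish was -0.26 ± 0.33 (SE), with a 95% interval from -1.10 to 0.58 and a limma adjusted p of 0.968. It was 0.02 without WT-139.

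Socs2, which restrains growth hormone receptor signalling, had 30.0 and 14.8 FPKM in Usp25+/+ mice and 25.6 and 21.4 FPKM in Usp25-/- mice. Both Usp25-/- values lay between those of the Usp25+/+ mice, whose spread (10.7 FPKM SD, n = 2) was wider than the distance between the group means of 22.4 and 23.5 FPKM. On the log2 scale the difference was 0.14 ± 0.41 (SE), with a 95% interval from -0.90 to 1.19 and a limma adjusted p of 0.982. It was 0.63 without WT-139 and -0.34 without WT-140.

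Socs4 and Socs5 form a pair of close relatives with a long amino-terminal region and are known as regulators of the EGF receptor, with Socs5 also acting on IL-4 signalling. Socs5 had 3.18 and 4.80 FPKM in Usp25+/+ mice and 7.26 and 5.67 FPKM in Usp25-/- mice. Both Usp25-/- values exceeded both Usp25+/+ values, and WT-139 was the lowest. The mean was 3.99 ± 1.14 FPKM against 6.46 ± 1.13 FPKM (SD, n = 2), a ratio of 1.62. The log2 difference of Socs5 was 0.59 ± 0.33 (SE), with a 95% interval from -0.23 to 1.42 and a limma adjusted p of 0.968. It was 0.36 without WT-139 and 0.83 without WT-140.

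Socs4 had the widest spread of the family, with a highest value 3.86 times its lowest. It had 9.04 and 4.27 FPKM in Usp25+/+ mice and 6.26 and 2.34 FPKM in Usp25-/- mice. Each genotype held 1 high and 1 low mouse, and the groups overlapped. Its log2 difference was -0.56 ± 0.53 (SE), with a 95% interval from -1.90 to 0.77 and a limma adjusted p of 0.968. Left out in turn, WT-139 and KO-850 brought it to -0.10 and close to 0 (-0.0039), and WT-140 and KO-826 to -1.03 and -1.12. Socs4 and Socs5, though related in sequence and at a similar mean level, thus did not rank the mice alike, and WT-139 was the highest mouse for Socs4 and the lowest for Socs5.

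Socs6 and Socs7 are best known from insulin receptor, KIT and adaptor signalling. Socs6 had 4.11 and 3.61 FPKM in Usp25+/+ mice and 6.01 and 4.55 FPKM in Usp25-/- mice. The groups did not overlap, and the gap between the nearest mice of the genotypes, WT-139 and KO-850, was narrow. On the log2 scale the difference was 0.36 ± 0.30 (SE), with a 95% interval from -0.40 to 1.12 and a limma adjusted p of 0.968. It was 0.19 without KO-826 and 0.53 without KO-850.

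Socs7 had 2.35 and 2.58 FPKM in Usp25+/+ mice and 1.73 and 1.79 FPKM in Usp25-/- mice. It was the steadiest member, with a highest value 1.50 times its lowest, and the mice of each genotype lay close together. Its log2 difference was -0.33 ± 0.29 (SE), with a 95% interval from -1.08 to 0.42 and a limma adjusted p of 0.968. Leaving out each mouse in turn gave -0.38 to -0.28. The scale adds 1 to each FPKM and therefore understates differences at such low levels, and with 0.1 added in place of 1 the log2 difference was -0.46.

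The direction of Cish and Socs1 rested on mouse WT-139, and that of Socs2 on WT-140. WT-139 had the highest value of the 4 mice for 5 of 8 members (Cish, Socs1, Socs2, Socs3 and Socs4) and the lowest for 1, Socs5, where 29.7% and 39.2% of all tested genes had their highest and lowest value in it. Relative to the median of the other 3 mice, its level was 2.18 times for Socs3, 2.12 times for Socs4, 1.68 times for Socs1, 1.50 times for Cish, 1.40 times for Socs2 and 0.562 times for Socs5. Without WT-139, 5 members were higher and 3 lower in Usp25-/- mice, with a median log2 difference of 0.11. That median was -0.44 without WT-140 and -0.08 without KO-850. Without WT-139 the groups did not overlap for 6 of 8 members, against 73.0% of all tested genes when 1 mouse is set against 2. Of these members 4 were higher and 2 lower (background 35.7% and 37.2%). Without WT-140, this held for 8 of 8 members (against 80.9%), with 2 higher and 6 lower (background 46.1% and 34.9%). Limma called 1.38% of all genes in that step and 0 of the members. Without KO-826 it held for 6 of 8 (52.9%), 2 higher and 4 lower (30.3% and 22.6%), and without KO-850 for 4 of 8 (60.7%), 2 higher and 2 lower (31.7% and 29.1%). Members whose groups do not overlap with all 4 mice, which are Socs3, Socs5, Socs6 and Socs7, cannot overlap or turn sign when a mouse is left out, so these steps are no check of their direction. Neutrophil genes were high in the same mouse, and their part in these values was not tested.

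**Figure D4:**
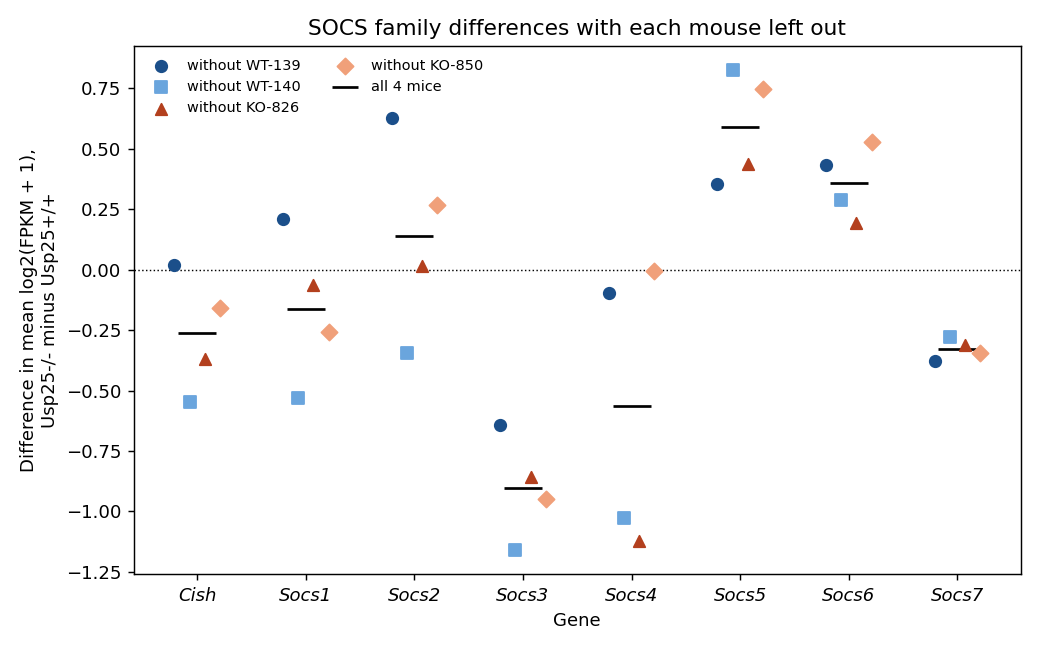
Difference in mean log2(FPKM + 1), Usp25-/- minus Usp25+/+, of each family gene with all 4 mice (bar) and with each mouse left out (points). Socs3 stays between -1.16 and -0.64, whereas Cish and Socs1 cross 0 without WT-139 and Socs2 crosses it without WT-140.

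The machinery that SOCS proteins act on was lower by mean in Usp25-/- mice. All 11 JAK and STAT genes were tested, none was called by limma, none had an unadjusted p under 0.05 and 11 of 11 had lower mean log2 values, as did 46.4% of all tested genes. The groups did not overlap for 6, all lower in Usp25-/- mice (background 14.7%). Their median log2 difference was -0.63, beside 0.03 for all tested genes. Stat3, the main inducer of Socs3, had 84.2 FPKM in WT-139 and 49.9 FPKM in WT-140, against 48.3 and 47.9 FPKM in the Usp25-/- pair. Most of the Stat3 difference thus lay between WT-139 and the other 3 mice. Stat6, the IL-4 factor, had 57.4 and 51.8 FPKM against 33.5 and 34.9 FPKM. Jak2, the kinase that SOCS1 and SOCS3 block, had 66.7 FPKM in WT-139 and 9.23 to 11.9 FPKM in the others. Without WT-139 the list's median was -0.46, with 9 of 11 genes lower.

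Receptors that signal through JAK kinases had 29 tested genes of 36. Limma called 0 of them, and 1 had an unadjusted p under 0.05, as did 3.30% of all tested genes. Mean log2 values were lower for 23 and higher for 6, and the median was -0.19. That median was -0.09 without WT-139 (17 lower and 12 higher), -0.65 without WT-140 and -0.41 without KO-850. Il15ra, the private chain of the IL-15 receptor, was the gene with that p. It had 26.5 and 11.6 FPKM in Usp25+/+ mice and 5.48 and 7.40 FPKM in Usp25-/- mice (log2 difference -1.33 ± 0.46, limma adjusted p = 0.968). Both Usp25-/- values were lower for 6 of the 29 (background 14.7%) and higher for 1 (background 19.0%). The 6 include both chains of the IL-10 receptor. Il10rb had 161 and 85.3 FPKM against 51.1 and 65.9 FPKM, and Il10ra had 88.6 and 35.4 FPKM against 33.2 and 25.4 FPKM. Csf3r, the receptor of G-CSF and a known target of SOCS3, had 183 FPKM in WT-139 and 7.80 FPKM in WT-140, with 14.1 and 17.9 FPKM in the Usp25-/- mice. It is also 1 of the neutrophil markers, and it overlapped between the genotypes.

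Of the ligands for these receptors, 12 of 35 were tested and 4 (Lep, Il9, Il13 and Gh) were listed at 0 in every mouse. Limma called 0 of the 12, and 1 had an unadjusted p under 0.05, as did 3.30% of all tested genes. By mean 7 were lower and 5 higher, and the median was -0.06. Among the ligands with the widest differences, single mice stood out. Il24, a cytokine of the IL-10 family that signals through STAT3, had 1.69 and 1.44 FPKM in Usp25+/+ mice and 25.9 and 4.58 FPKM in Usp25-/- mice (log2 difference 2.26 ± 0.76, limma adjusted p = 0.968). Clcf1, a ligand that signals through gp130, had 4.59 and 5.24 FPKM against 49.1 and 8.19 FPKM. Both were therefore high mainly in KO-826, as was Csf2, encoding GM-CSF, at 47.9 FPKM there against 2.60 to 6.35 FPKM in the others. Csf3, encoding G-CSF, was high in WT-139 instead, at 118 FPKM against 1.14 to 6.43 FPKM. Without WT-139, 9 of 12 ligands were higher in Usp25-/- mice, with a median of 0.76. The median was -0.44 without WT-140, -0.22 without KO-826 and 0.20 without KO-850, so its sign depended on which mice were included.

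The partners that turn a SOCS box into a ubiquitin ligase had a positive median. All 9 entries in the table were tested, limma called 0 and none had an unadjusted p under 0.05, 8 were higher and 1 lower by mean, and the median log2 difference was 0.21. For 4 of the 9 both Usp25-/- values were higher (background 19.0%). Rescaling the libraries by median-of-ratios factors reduced these 4 to 1 (background 17.6%) and the median to 0.18. Without KO-826 the median was 0.09, with 6 higher and 3 lower, and without WT-140 it was 0.13. Rnf7, the RING protein paired with cullin 5, had 55.3 and 55.6 FPKM in Usp25+/+ mice and 74.5 and 59.3 FPKM in Usp25-/- mice. Tceb2, elongin B, had 147 and 218 FPKM against 245 and 199 FPKM and overlapped between the genotypes.

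Other proteins that carry a SOCS box but no SH2 domain had 15 tested genes of 27. Limma called 0, and 1 had an unadjusted p under 0.05, as did 3.30% of all tested genes. By mean 10 were lower and 5 higher, and the median was -0.15. Without WT-140 it was 0.24, with 8 higher and 7 lower, and without WT-139 it was -0.27, so the direction of this list rested on WT-140. Spsb4, an adaptor of this group, was the gene with that p, with 2.57 and 2.84 FPKM in WT-139 and WT-140 and 0.900 and 0.631 FPKM in KO-826 and KO-850. Wsb1, the most abundant by mean, had 153 FPKM in WT-139 and 53.3 to 67.3 FPKM in the others, a pattern in which WT-139 alone stands out as it does for Cish.

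Inhibitors of JAK-STAT signalling outside the family had 15 of 15 genes tested. Limma called 0, and 1 had an unadjusted p under 0.05, as did 3.30% of all tested genes. By mean 12 were lower and 3 higher, and the median was -0.28. Ptpn6, the phosphatase SHP-1 of blood cells, was the gene with that p, at 154 and 124 FPKM in Usp25+/+ mice and 55.5 and 87.3 FPKM in Usp25-/- mice (log2 difference -0.98 ± 0.37, limma adjusted p = 0.968). Ptpn1, the phosphatase PTP1B, had 105 and 93.7 FPKM against 62.5 and 66.9 FPKM. Both Usp25-/- values were lower, as for Socs3 and for 14.7% of all tested genes. Usp18, which inhibits the type I interferon receptor, had 24.7 FPKM in WT-139 and overlapped among the others, at 2.49, 5.61 and 2.42 FPKM. Without WT-139 the list's median was 0.05, with 6 of 15 genes lower, and without WT-140 it was -0.51.

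Target genes of STAT3 and STAT5, the class to which the inducible SOCS genes themselves belong, did not all differ in 1 direction. Of 26 tested targets limma called 0 and none had an unadjusted p under 0.05, 19 were lower and 7 higher by mean, and the median was -0.30. Without WT-139, 14 were lower and 12 higher, with a median of -0.07, and without WT-140 the median was -0.47. Junb, an AP-1 factor, had 496 and 622 FPKM in Usp25+/+ mice and 449 and 461 FPKM in Usp25-/- mice.

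Receptors and adaptors outside the JAK pathway that SOCS proteins bind had 16 of 20 genes tested. Limma called 0 and none had an unadjusted p under 0.05, 11 were lower and 5 higher by mean, and the median was -0.20. Vav1, a blood cell exchange factor bound by SOCS1, had 66.1 and 33.6 FPKM in Usp25+/+ mice and 21.2 and 26.2 FPKM in Usp25-/- mice. Erbb2, a receptor of the EGF receptor family, had 2.25 and 1.97 FPKM against 4.22 and 3.18 FPKM. Both Usp25-/- values were higher, as for Socs5 and for 19.0% of all tested genes. Without WT-139 the list was even, with 8 genes lower and 8 higher and a median of 0.07, and without KO-850 the median was -0.11.

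**Figure D5:**
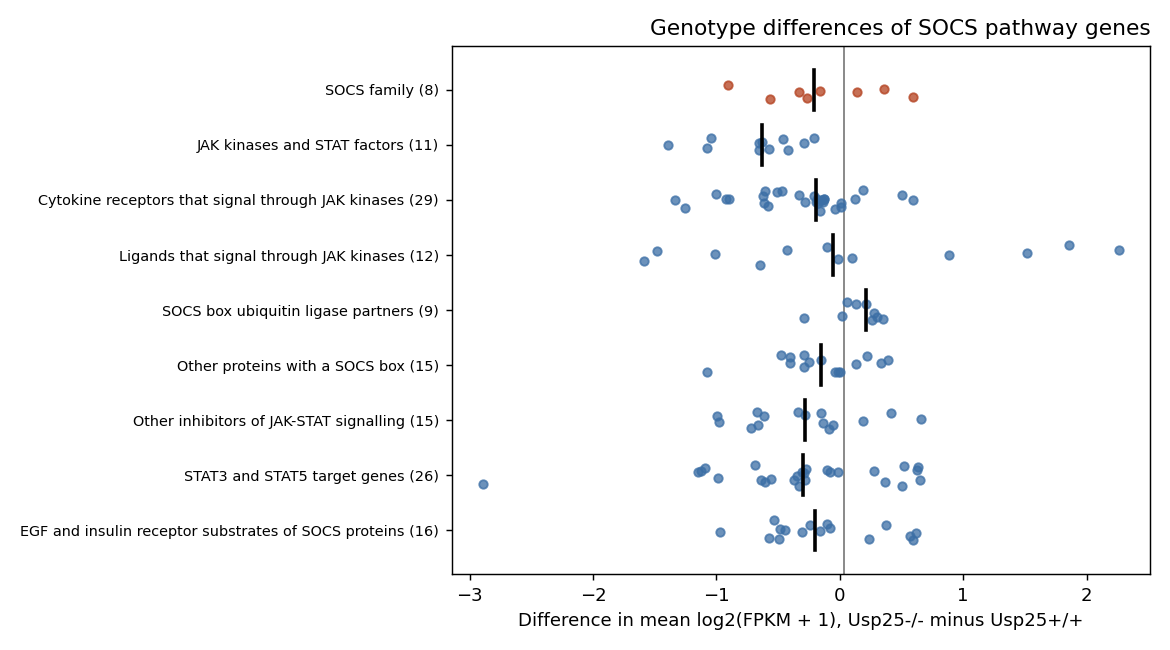
Difference in mean log2(FPKM + 1), Usp25-/- minus Usp25+/+, of every tested gene (points, spread vertically for legibility) in the SOCS family and 8 pathway lists, with the list's median as a black bar, the number of genes in brackets and the median of all tested genes as a grey line. JAK and STAT genes (median -0.63) lie to the left, and the ubiquitin ligase partners (median 0.21) to the right.

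Genes with the pattern most like a member were looked up for Socs3 and Socs4, the members whose log2(FPKM + 1) spanned at least 1 over the 4 mice. Likeness was the root mean square distance between profiles centred on their own mean, over 4 mice and 11264 genes, and it is given as a description. Map3k8 (distance 0.0420), Per1 (0.0524) and Mylip (0.0555) lay nearest to Socs3. Map3k8, a kinase of the Toll-like receptor and TNF pathways, had 47.4 and 30.8 FPKM in Usp25+/+ mice and 19.8 and 21.7 FPKM in Usp25-/- mice. Per1 is a circadian clock gene and Mylip a ubiquitin ligase of the LDL receptor. Near to Socs4 were Fam71f2 (0.0766) and Ecm1 (0.115). With 4 values to a profile, near matches are easily found among so many genes.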

How the data were processed

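Polyadenylated RNA from 4 mice was sequenced, 2 Usp25+/+ and 2 Usp25-/-. The deposited table gives FPKM values, 1 column for each mouse and 1 row for each gene symbol. Bowtie 0.12.2 and the build mm9 are named in the submitters' processing notes. How the authors computed FPKM, with which annotation and strand setting, is not given in the sources used here. Low values were inspected for whole-fragment steps over 2687 genes with 1 exon. The most frequent product of FPKM and length held 1.95% to 3.11% of values above 0, so depth is unknown and no counting interval is given. Rows whose symbols had become dates (27) were left out, which left 24394.

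Genes at 1 FPKM or more in at least 2 mice (12103) were tested as log2(FPKM + 1) in 1 comparison, Usp25-/- against Usp25+/+. The test was limma 3.58.1 in R 4.3.3 with a mean-variance trend, two-sided, with Benjamini-Hochberg adjustment over all tested genes, a threshold of 0.05 and no block. It was tested on simulated data. Tables and plots used Python 3.11.15, pandas 2.3.3 and matplotlib 3.10.9. Pathway genes named are the tested entries of each list with the largest differences or highest means. Alternatives were other pseudocounts, filters, scalings and variance models and leaving out each mouse. Where 1 mouse is left in a group, it is assumed to vary like the other group. The members and lists were chosen with earlier results of these data known. Results of some list entries are not reported here.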

Additional observations from a re-analysis of the deposited data

How the results depend on the processing

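No member passed limma's adjusted threshold under any of the 11 alternatives, whose adjusted p values for the members ran from 0.104 to 1. Socs3, Socs4, Socs5, Socs6 and Socs7 kept their direction in all of them, with Socs3 between -1.16 and -0.64 on the log2 scale. Leaving out a mouse could not turn the sign of Socs3, Socs5, Socs6 or Socs7, whose groups did not overlap. The sign of the others turned in 1 step each, and the cause was not tested. With a mouse left out, Cish ran from -0.55 to 0.0203 and Socs1 from -0.53 to 0.21, both positive without WT-139, and Socs2 from -0.34 (without WT-140) to 0.63. Over the steps that leave out a mouse, limma called 0 to 163 of all tested genes, the 163 without WT-140, where Usp25 passed too (-3.65, adjusted p = 0.0341), and 0 of the members in each. The number of members whose groups did not overlap was 4 with all mice (33.7% of all tested genes) and under both rescalings. It was 6 without WT-139 (73.0% of all tested genes), 8 without WT-140 (80.9%), 6 without KO-826 (52.9%) and 4 without KO-850 (60.7%). These counts were chosen after seeing the data. No paired analysis was possible because the labels give no replicate numbers shared between the genotypes. With 2 mice in a group and no fragment counts, the precision of members below 10 FPKM cannot be stated.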

Other observations

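Ratios between members within a library do not depend on how libraries are scaled, and some were formed after the values had been seen. The ratio of Socs3 to Socs5 was 59.3 and 27.5 in WT-139 and WT-140 and 11.2 and 15.3 in KO-826 and KO-850. The ratio of Cish to Socs2, the STAT5-linked members, was 1.30 and 1.76 in Usp25+/+ mice and 1.11 and 1.15 in Usp25-/- mice. The ratio of Socs3 to Socs5 had to be lower in both Usp25-/- mice, since Socs3 was lower and Socs5 higher in both. That of Cish to Socs2 was also lower in both, although Cish and Socs2 each overlapped between the genotypes. The ratio of Socs5 to its relative Socs4 was 0.352 and 1.12 in Usp25+/+ mice and 1.16 and 2.42 in Usp25-/- mice, so that WT-140 and KO-826 lay side by side and WT-139 and KO-850 at the ends. Since they were picked for their values, these ratios were not tested.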
